A study of Homo sapiens with 14 samples.

Results

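The genes described here are 10 members of the mTOR pathway, namely MTOR, RPTOR, RICTOR, MLST8, AKT1S1, TSC1, TSC2, RPS6KB1, EIF4EBP1 and EIF4EBP2. They were taken by symbol from a table of read counts for 58434 gene symbols, and all 10 were present. MDA-MB-231, an established human breast cancer line, carried a stable doxycycline-inducible construct that gave either a non-silencing shRNA (shNSi) or an shRNA against DAP5 (shDAP5, gene symbol EIF4G2), and cells of both kinds received doxycycline at 1 µg/ml for 6 days. DAP5 is a relative of the scaffold protein eIF4G that lacks the binding site for the cap-binding protein eIF4E, and the study asked which mRNAs depend on it for their translation. Total mRNA, light polysomes (mRNA carrying few ribosomes) and heavy polysomes (mRNA carrying more ribosomes, taken as well translated) were sequenced from 2 cultures of each kind, and a moderate polysome pool was sequenced from the 2 shNSi cultures, which gave 14 libraries. The shDAP5 polysome libraries titled light bear a code that the shNSi cultures use for their moderate pool, and the shDAP5 total libraries are titled total polysome. They were taken as light polysomes and as total mRNA here, and the comparisons of light polysomes between the cells are also given against the shNSi moderate pool. The labels only number the cultures, and the study describes its data as coming from independently run sets. The p-values therefore rest on 2 such cultures of each kind. In edgeR's fit the spread of each gene was estimated partly from that of all genes, and not from its own 2 cultures alone.

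mTOR is a kinase that works in a pair of complexes, mTORC1 with RPTOR and mTORC2 with RICTOR, and it drives growth and protein synthesis when nutrients and growth factors are present. TSC1 and TSC2 form the complex that restrains mTORC1, while the S6 kinase (RPS6KB1) and the 4E-BP proteins (EIF4EBP1, EIF4EBP2) are its substrates. An unphosphorylated 4E-BP holds eIF4E and keeps it from joining eIF4G at the cap, and mTORC1 releases that hold, so these genes govern the initiation route that uses eIF4E and eIF4G.

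The members differ widely in size in GENCODE v29 (GRCh38). MTOR, the kinase itself (chr1:11106535-11262507, minus strand), has a coding sequence of 7650 nt. TSC2, the GTPase-activating subunit of the TSC complex (chr16:2047465-2089487, plus strand), has 5424 nt, and RICTOR, the scaffold of mTORC2 (chr5:38937919-39074408, minus strand), has 5127 nt. RPTOR, the scaffold of mTORC1 (chr17:80544819-80966371, plus strand), has 4008 nt, and TSC1, which stabilizes TSC2 (chr9:132891348-132946874, minus strand), has 3495 nt. These 5 genes are called the long kinase and scaffold genes below. RPS6KB1 (1578 nt), MLST8 (981 nt), a subunit of both complexes, and AKT1S1 (771 nt), which encodes the mTORC1 inhibitor and substrate PRAS40, lie between. EIF4EBP2 (chr10:70404379-70428618, plus strand) has a coding sequence of 363 nt and EIF4EBP1 one of 357 nt. A short mRNA, however, was annotated for EIF4EBP1 alone, with a transcript of 1020 nt. EIF4EBP2 has 363 coding nt within a transcript of 7257 nt, of which 6871 nt are 3′ UTR, so that its mRNA is longer than the 6408 nt of RPTOR. The contrast drawn below is therefore one of short against long coding sequences and not of short against long mRNAs.

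Annotated start codons are shown for the 3 long genes with the lowest log2 change in heavy polysomes of silenced cells and for the 4E-BP gene with the long 3′ UTR. The read counts do not show where translation began. Each line holds the 9 bases before the start codon, the start codon in capitals and the 12 bases after it, 5′ to 3′, read from the GENCODE v29 transcript.
MTOR: cagggcaagATGcttggaaccgga
TSC2: tggtccaccATGgccaaaccaaca
RICTOR: cccgtcaatATGgcggcgatcggc
EIF4EBP2: cccacagccATGtcctcgtcagcc
A purine 3 bases before the start codon together with a G right after it, the main features of a strong context, occurred in 3 of the 10 members (RICTOR, TSC1 and TSC2) and in 42.6% of 18541 protein-coding genes. TSC2 and RICTOR have both features, while MTOR and EIF4EBP2 lack the G.

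The libraries held 25899838 to 30795910 counts each. EIF4G2, the gene targeted by the shRNA, stood at 1392 and 1359 CPM (counts brought to a common library size with TMM, the trimmed mean of M-values) in shNSi total mRNA and at 526 and 730 CPM in shDAP5 total mRNA. Its log2 change was -1.11 (SE 0.18, adjusted p = 0.0172, quasi-likelihood test of edgeR, adjusted by Benjamini-Hochberg over all genes), so part of the message remained, and the change was below 0 in all 13 alternatives (-1.37 to -0.90) and passed in 8 of them, missing among others without shDAP5 culture 1 (adjusted p = 0.680). VIM, CD44, FOSL1, AXL, CAV1 and EGFR, taken as genes this line expresses, were present in all 14 libraries, with 38.8 CPM as the lowest value. In contrast, ESR1, PGR, CDH1, KRT14 and PTPRC did not exceed 0.607 CPM, and EPCAM was at 2.91 to 6.11 CPM.

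Among the members, EIF4EBP1 had the highest level per length in shNSi total mRNA, at 121 ± 18.2 CPM per kb of annotated transcript (SD, n = 2), followed by MLST8 at 52.1 ± 5.83 and AKT1S1 at 37.2 ± 0.859 CPM per kb. EIF4EBP2 stood at 19.7 ± 2.92, RPTOR at 15.5 ± 1.30 and MTOR at 9.04 ± 0.0181 CPM per kb. These 5 stood above the kinase itself in mRNA per length. TSC2 (7.50 ± 0.873), RPS6KB1 (7.07 ± 0.796) and TSC1 (5.21 ± 0.0191 CPM per kb) followed, and RICTOR was lowest at 1.70 ± 0.718 CPM per kb. TSC2 and RPS6KB1 differed by less than their SD. Per kb of the union of all annotated exons the order of some neighbours changed, with MLST8 at 22.5 and AKT1S1 at 23.6, and TSC2 at 2.36, RPS6KB1 at 4.94 and TSC1 at 2.55 CPM per kb. The third 4E-BP gene, EIF4EBP3, had 0 or 1 count in each of the 14 libraries and was not tested.

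The first comparison asked where the members sat in the gradient of cells with normal DAP5. In shNSi cells 4 of the 5 long genes were higher in heavy than in light polysomes, and EIF4EBP1, EIF4EBP2, MLST8 and AKT1S1 were lower. MTOR had 31.3 and 32.4 CPM in light and 123 and 216 CPM in heavy polysomes of shNSi cultures 1 and 2. EIF4EBP1 had 345 and 166 CPM in light and 56.0 and 41.1 CPM in heavy polysomes of the same cultures. The pools did not overlap for either gene, and the order was opposite. The log2 difference of heavy against light was 2.20 for MTOR (SE 0.33, adjusted p = 9.33e-10), 1.94 for TSC2 (SE 0.32, adjusted p = 1.62e-08), 1.41 for RPTOR and 1.40 for RICTOR in edgeR's quasi-likelihood test. It was -2.46 for EIF4EBP1 (SE 0.36, adjusted p = 3.64e-10), -1.15 for EIF4EBP2, -1.34 for AKT1S1 and -1.36 for MLST8. TSC1 (0.35) and RPS6KB1 (0.11) did not pass the test. In all, 8 of 10 members passed, 4 higher and 4 lower in heavy polysomes, beside 64.9% of the genes tested, so the count itself was near the background.

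**Figure D1:**
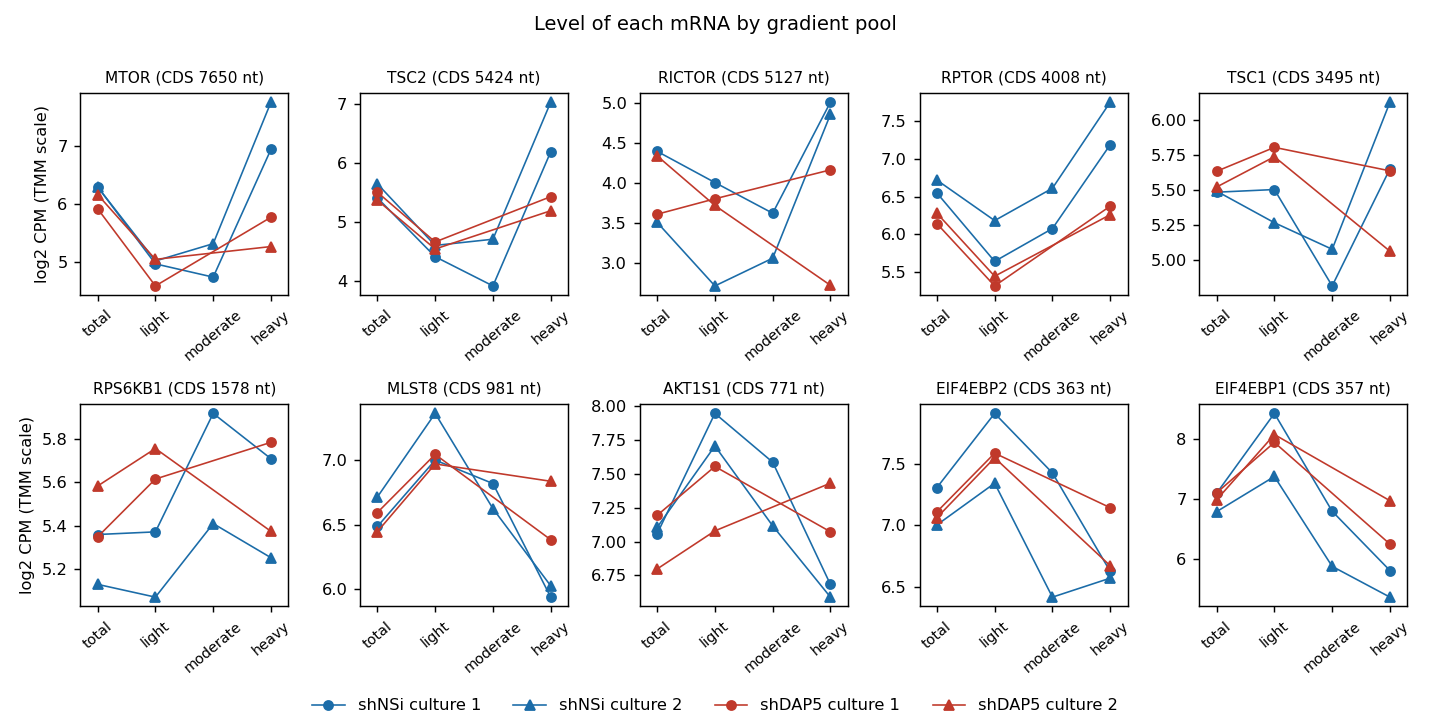
Level of each of the 10 members (log2 CPM on the TMM scale, vertical axis, each panel with its own range) in total mRNA and in light, moderate and heavy polysomes (horizontal axis), for the 2 shNSi (blue) and 2 shDAP5 (red) cultures, each joined by a line. MTOR climbs from light to heavy polysomes most steeply in shNSi cells, where it reaches 123 and 216 CPM, and EIF4EBP1 descends to 56.0 and 41.1 CPM. No shDAP5 library is titled moderate.

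When an offset for coding length was fitted in each library, which sets every gene against others of its coding length, MTOR (0.74, adjusted p = 0.00919) and TSC2 (0.58, adjusted p = 0.0300) were still called higher in heavy polysomes by edgeR, and MLST8 (-1.16, adjusted p = 0.000702), AKT1S1 (-0.69, adjusted p = 0.0284) and EIF4EBP1 (-0.59, adjusted p = 0.0441) were still lower, beside 54% of all genes called in that fit. RPTOR (0.13) and RICTOR (0.06) no longer passed. EIF4EBP2 turned from -1.15 to 0.69 (adjusted p = 0.0223) and TSC1 from 0.35 to -0.87 (adjusted p = 0.00291). The 2 4E-BP genes thus lay on opposite sides once coding length was taken into account. Within single libraries, which need no scaling, the reads of EIF4EBP1 per read of EIF4EBP2 fell from light to heavy polysomes in each of the 4 cultures, from 1.44 to 0.567 and from 1.025 to 0.433 in shNSi cells and from 1.28 to 0.538 and from 1.44 to 1.23 in shDAP5 cells. EIF4EBP1 was thus the more weighted to light polysomes of this pair in every culture, with the least difference in shDAP5 culture 2.

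In the moderate pool of the shNSi cells MTOR had 26.7 and 39.8 CPM and TSC2 15.1 and 26.1 CPM, near their values in light polysomes (31.3 and 32.4 for MTOR, 21.2 and 24.3 for TSC2) and below their heavy values. RPTOR was higher in the moderate than in the light pool of each culture, with 67.4 and 97.7 against 49.9 and 72.6 CPM, and TSC1 was lower, with 28.2 and 33.8 against 45.4 and 38.5 CPM. The moderate minus heavy log2 difference was -2.24 for MTOR (SE 0.33, adjusted p = 1.76e-09) and -2.22 for TSC2 (SE 0.32, adjusted p = 1.13e-09) in edgeR's test. All 5 long genes were lower in the moderate than in the heavy pool, with -1.53 for RICTOR, -1.04 for RPTOR and -0.86 for TSC1, and MLST8 (0.84) and EIF4EBP1 (0.83) were higher. With 7 of 10 the share of members called stood above the 35.2% of all genes tested, and with coding length offsets 2 members, MTOR and TSC2, were called, the same share as the 20% of all genes in that fit.

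In shDAP5 cells 3 of the long genes were higher in heavy than in light polysomes and both 4E-BP genes were lower. MTOR had 24.1 and 33.0 CPM in light and 54.6 and 38.5 CPM in heavy polysomes, and the log2 difference of heavy against light was 0.66 (SE 0.28, adjusted p = 0.0344). RPTOR (0.90, adjusted p = 0.00183) and TSC2 (0.67, adjusted p = 0.0323) were also higher in heavy polysomes by edgeR's test, and EIF4EBP1 (-1.44, adjusted p = 1.37e-06) and EIF4EBP2 (-0.70, adjusted p = 0.0198) were lower. RICTOR, called higher in heavy polysomes of shNSi cells, had -0.34 here (adjusted p = 0.329). If the shDAP5 light libraries are a moderate pool, this comparison is one of heavy against moderate and is not matched to the shNSi one. These 5 calls of 10 stood beside 49.9% of all genes tested, and they became 3 with at least 10 counts required in every library, below the 50.3% of all genes in that fit. Of 5 alternatives, the call of MTOR was kept in 1 and that of TSC2 in 2.

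Whether the difference between the pools itself differed between the cells was tested as the interaction of pool and shRNA. The heavy minus light log2 ratio of MTOR was 1.97 and 2.73 in shNSi cultures and 1.18 and 0.22 in shDAP5 cultures. That of RICTOR was 1.00 and 2.14 in shNSi and 0.36 and -0.99 in shDAP5 cultures, and that of TSC2 was 1.78 and 2.43 against 0.77 and 0.65. In all 3 genes both silenced cultures lay below both control cultures, and over the members the ratios of the 2 kinds of cell did not overlap in 9 of 10, beside 54.5% of all genes tested. The shift was -1.55 for MTOR (SE 0.44, adjusted p = 0.0382) and -1.77 for RICTOR (SE 0.49, adjusted p = 0.0356), which edgeR called, and -1.30 for TSC2 (adjusted p = 0.0530), which it did not. The short members EIF4EBP1 and AKT1S1 had values of the other sign, 1.02 (adjusted p = 0.167) and 1.22 (adjusted p = 0.0973). The 2 calls of 10 members, both lower, stood beside 6.75% of all genes tested. Over 16 alternatives the shift ran from -2.07 to 0.66 for MTOR and from -2.50 to -0.27 for RICTOR. Both calls were lost without shNSi culture 2 (beside 4.51% of all genes called in that fit) or without shDAP5 culture 2 (0.0121%). They were also lost with coding length offsets, with no term for each culture and with limma on quantile-normalized values, fits in which 0% of all genes were called. With the shNSi moderate pool in place of the heavy pool, where again 0% of all genes were called, MTOR had 0.66 (adjusted p = 0.999) and RICTOR -0.27. The shDAP5 light libraries, whose code is that of the moderate pool, enter this comparison, so it was also run with the shNSi moderate pool in place of the light pool. MTOR then had -1.52 (adjusted p = 0.00237), RICTOR -1.80 (adjusted p = 0.000445), TSC2 -1.497 (adjusted p = 0.00260) and TSC1 -1.26 (adjusted p = 0.0118) in edgeR, and these 4 calls of 10 stood beside 23.9% of all genes tested in that fit. EIF4EBP1 turned to -0.55 (adjusted p = 0.357) and EIF4EBP2 to -0.24, and AKT1S1 had 0.75 (adjusted p = 0.202), so the sign of the 4E-BP genes depended on the reading of the labels and that of MTOR and RICTOR did not.

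Total mRNA of the members was compared next, to see whether silencing of DAP5 changed the amount of their messages. None of the 10 members passed the test in edgeR, beside 0.354% of the genes tested, 1 of them (RPTOR) had an unadjusted p under 0.05, and none passed with DESeq2 or limma. MTOR had 78.5 and 78.3 CPM in shNSi and 60.4 and 71.5 CPM in shDAP5 cultures, with a log2 change of -0.22 (SE 0.18, adjusted p = 0.70). EIF4EBP1 had 137 and 111 CPM in shNSi and 138 and 127 CPM in shDAP5 cultures, with a log2 change of 0.12 (SE 0.18, adjusted p = 0.878). The shDAP5 values of MTOR lay below those of shNSi and those of EIF4EBP1 overlapped. The 10 changes ran from -0.40 for RPTOR (adjusted p = 0.382), the mTORC1 scaffold, to 0.25 for RPS6KB1 (adjusted p = 0.706), the S6 kinase, with a median of -0.05 beside 0.01 over all genes. The counts are relative to each library, so that fewer cells with a message and less message per cell cannot be told apart.

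In heavy polysomes 4 of the long genes were lower and 3 of the shorter ones higher in shDAP5 than in shNSi cells. MTOR had 123 and 216 CPM in shNSi and 54.6 and 38.5 CPM in shDAP5 heavy polysomes. TSC2 had 73.0 and 131 CPM against 43.0 and 36.5 CPM, and RICTOR had 32.3 and 29.05 against 18.0 and 6.60 CPM. In these 3 genes each shDAP5 value lay below each shNSi value, and the 2 kinds of cell did not overlap in 9 of the 10 members, beside 66.1% of all genes tested. The log2 change was -1.67 for MTOR (SE 0.34, adjusted p = 4.20e-05), -1.17 for TSC2 (SE 0.33, adjusted p = 0.00393), -1.14 for RICTOR (SE 0.35, adjusted p = 0.00774) and -0.99 for RPTOR (SE 0.33, adjusted p = 0.0153) in edgeR's quasi-likelihood test. The value of RICTOR moved with 1 culture, to -0.62 (adjusted p = 0.320) without shDAP5 culture 2 and to -2.08 (adjusted p = 0.000640) without shDAP5 culture 1. The fourth of these, RPTOR, had 146 and 216 CPM in shNSi and 82.9 and 76.6 CPM in shDAP5 cultures. TSC1 did not pass (-0.34, adjusted p = 0.439), and its shDAP5 values of 49.8 and 33.5 CPM lay below the 50.2 and 69.8 CPM of shNSi, the nearest of them by a small margin.

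EIF4EBP1 moved the other way in heavy polysomes, from 56.0 and 41.1 CPM in shNSi to 76.0 and 126 CPM in shDAP5 cultures. AKT1S1 went from 103 and 96.3 to 135 and 173 CPM, and MLST8 from 61.3 and 65.2 to 83.5 and 114 CPM. All 3 stood higher in both silenced cultures than in both control cultures. The log2 change was 1.24 for EIF4EBP1 (SE 0.33, adjusted p = 0.00217), 0.81 for AKT1S1 (SE 0.33, adjusted p = 0.0493) and 0.83 for MLST8 (SE 0.33, adjusted p = 0.0401), the last 2 close to the threshold. EIF4EBP2, the other 4E-BP gene, had 98.8 and 95.1 CPM in shNSi and 141 and 102 CPM in shDAP5 cultures, a change of 0.51 (SE 0.33, adjusted p = 0.229) that did not pass. RPS6KB1 had 52.3 and 38.1 against 55.1 and 41.5 CPM, which overlap, and a change of 0.27 (adjusted p = 0.548). In all 7 of 10 members were called, 4 lower and 3 higher, beside 30.9% of all genes tested. No member was called without shDAP5 culture 2 (beside 0.0134% of all genes in that fit), with coding length offsets (12.1%), or when the shNSi moderate pool, by itself (0.344%) or added to the heavy pool (2.77%), was the control. The calls were 2 without shNSi culture 2 (beside 14.1% of all genes in that fit), 4 without shDAP5 culture 1 (19.9%), 3 in 1 fit of all 14 libraries (23.7%), and 4, 1 lower and 3 higher, with library sizes not scaled by TMM (25.5%). AKT1S1 was called in 3 and MLST8 in 4 of 15 alternatives, and with DESeq2 they missed (adjusted p = 0.0590 and 0.0620), as they did without any 1 of the 4 cultures.

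Translation efficiency, the log2 ratio of polysome to total mRNA of the same culture, was then compared, since it takes the total level of each message into account. The heavy translation efficiency of MTOR was 0.64 and 1.46 in shNSi and -0.15 and -0.89 in shDAP5 cultures. That of TSC2 was 0.78 and 1.39 against -0.08 and -0.18, and that of EIF4EBP1 was -1.29 and -1.43 against -0.86 and -0.02. MTOR and TSC2 lay above their total level in both control cultures and below it in both silenced ones, whereas EIF4EBP1 lay below it in all 4 cultures and least so in the silenced ones. The change was -1.43 for MTOR (SE 0.35, adjusted p = 0.00983), a level 0.372 times that of shNSi cells, -1.07 for TSC2 (SE 0.34, adjusted p = 0.0326) and 1.07 for EIF4EBP1 (SE 0.34, adjusted p = 0.0335), a level 2.10 times that of shNSi cells, in edgeR's quasi-likelihood test of the interaction. These 3 calls of 10 members, 2 lower and 1 higher, stood beside 13.1% of all genes tested.

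RICTOR had a change nearly as low as that of MTOR, -1.34, but its SE of 0.57 was the largest of the 10 and it did not pass (adjusted p = 0.140). Its heavy translation efficiency was 0.61 and 1.35 in shNSi and 0.55 and -1.61 in shDAP5 cultures, so shDAP5 culture 1 lay just below shNSi culture 1. Without shDAP5 culture 2 its change was -0.31, and without shDAP5 culture 1 it was -2.42 (adjusted p = 1.27e-05). The RICTOR value therefore rests on 1 culture. RPTOR (-0.59, adjusted p = 0.234), TSC1 (-0.48, adjusted p = 0.352), EIF4EBP2 (0.52, adjusted p = 0.295), AKT1S1 (0.85, adjusted p = 0.0871) and MLST8 (0.85, adjusted p = 0.0790) did not pass, and RPS6KB1 had 0.02 (adjusted p = 0.975). In 9 of the 10 members the heavy translation efficiencies of the 2 kinds of cell did not overlap, 5 of them below and 4 above, beside 59.5% of all genes tested, and RPS6KB1 was the member that overlapped. The median over the members was -0.23 beside 0.09 over all genes.

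The 3 calls in heavy translation efficiency were all lost without shNSi culture 2 (beside 0.025% of all genes called in that fit), without shDAP5 culture 2 (0.27%), without TMM scaling (0%), with no term for each culture (0%), and with limma on quantile-normalized values (2.65%), where the adjusted p was 0.0525 for MTOR, 0.0694 for TSC2 and 0.062 for EIF4EBP1. Without shDAP5 culture 1, 6 of the 10 were called beside 28.5% of all genes in that fit, without shNSi culture 1 MTOR alone was called beside 3.59%, and 5 were called beside 19.1% with at least 10 counts in every library. With the replicate number as a block, TSC2 (adjusted p = 0.0962) and EIF4EBP1 (adjusted p = 0.108) no longer passed and RICTOR did (adjusted p = 0.0454), although the numbers are not known to pair the cultures.

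The 4E-BP genes were contrasted with the 5 long genes by the mean of their changes in heavy translation efficiency. EIF4EBP1 and EIF4EBP2 averaged 0.80 and the long genes -0.98, a difference of 1.78 on the log2 scale. Taken culture by culture, the mean heavy translation efficiency of the 4E-BP genes minus that of the long genes was -1.55 and -2.10 in shNSi and -0.52 and 0.43 in shDAP5 cultures, with a pooled SD between cultures of 0.55. The shNSi and shDAP5 values did not overlap, and in shDAP5 culture 2 the 4E-BP genes were the less depleted from heavy polysomes relative to total mRNA (-0.20 against -0.63). The difference stayed between 1.30 and 2.26 when each culture was left out in turn.

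The same counts were also set out within single libraries, as the summed reads of the 4E-BP genes per read of the long genes. This ratio restates the contrast without scaling between libraries and is not a separate test. Genes with more reads weigh more in it. In heavy polysomes this ratio was 0.365 and 0.206 in shNSi and 0.876 and 1.19 in shDAP5 cultures. In light polysomes it was 3.57 and 1.88 against 2.76 and 2.75, and in total mRNA it was 1.05 and 0.824 against 1.16 and 1.01. The ratio was apart between the cells in heavy polysomes, overlapped in light polysomes and was nearly level in total mRNA. In the shNSi moderate pool it was 1.89 and 0.701, a range that holds both shDAP5 heavy values and lies below both shDAP5 light values, so that with the light libraries read as moderate the cells would not overlap there either.

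**Figure D2:**
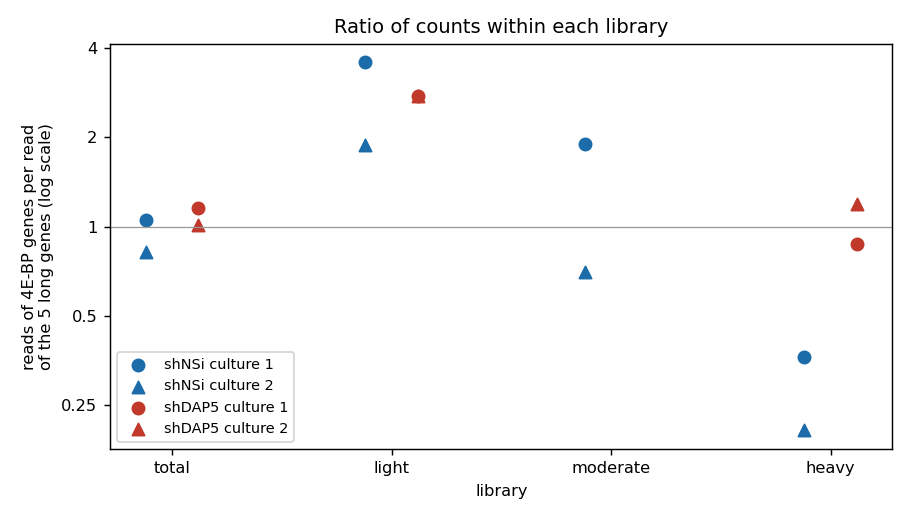
Summed reads of EIF4EBP1 and EIF4EBP2 per read of the 5 long genes (vertical axis, log scale) in each of the 14 libraries, by pool (horizontal axis), for shNSi (blue) and shDAP5 (red) cultures. The shDAP5 heavy libraries, at 0.876 and 1.19, sit above the shNSi heavy libraries at 0.365 and 0.206 and between the 2 shNSi moderate libraries at 1.89 and 0.701.

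The direction of these results depended on the control pool. With the shNSi moderate pool in place of the heavy pool, the change in heavy translation efficiency was 0.72 for MTOR, 1.07 for TSC2 and 0.15 for EIF4EBP1 (each adjusted p = 1.00 in edgeR, in a fit that called 0% of all genes), and the contrast of the 4E-BP genes with the long genes was -0.41 instead of 1.78. With the shNSi heavy and moderate pools summed, MTOR had -0.53, TSC2 -0.17 and EIF4EBP1 0.60, none of them called beside 0% of all genes, and the contrast was 0.74. Of the shDAP5 heavy values of MTOR, 38.5 CPM lay within the 26.7 and 39.8 CPM of the shNSi moderate pool and 54.6 CPM above it, and both lay below the 123 and 216 CPM of the shNSi heavy pool. Whether the heavy pools of the 2 kinds of cell hold the same range of ribosome numbers was not tested, as no shDAP5 library is titled moderate.

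**Figure D3:**
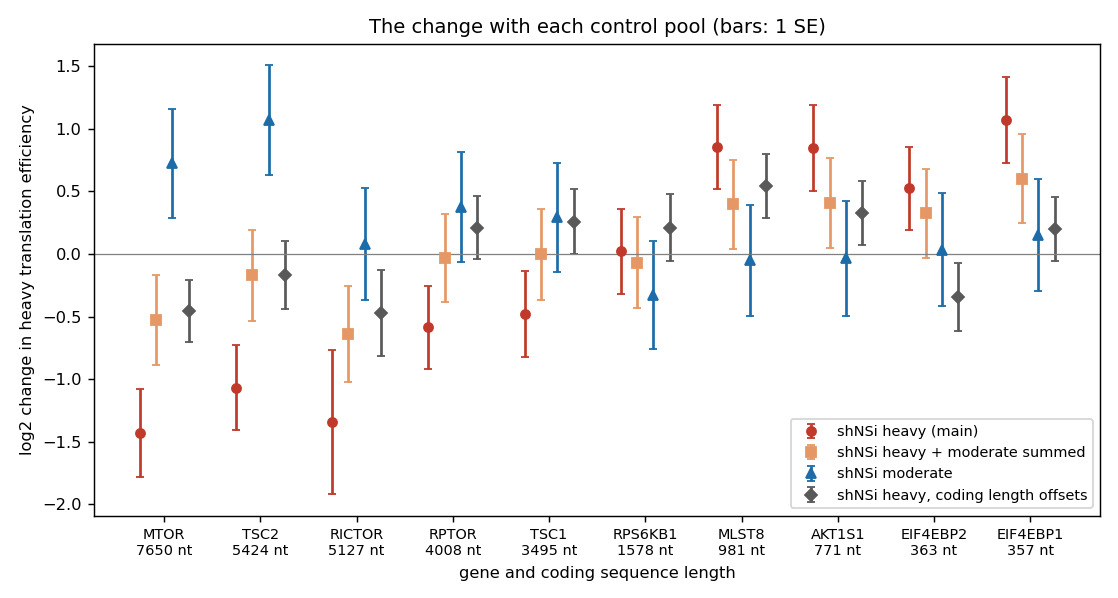
Log2 change in heavy translation efficiency of each member (vertical axis, bars 1 SE), in order of coding length (horizontal axis), with 4 choices of control or offset: the shNSi heavy pool, the shNSi heavy and moderate pools summed, the shNSi moderate pool, and the shNSi heavy pool with coding length offsets. MTOR runs from -1.43 with the heavy pool to 0.72 with the moderate pool, and the values with coding length offsets lie between -0.47 and 0.54.

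Coding length moved with the change in heavy translation efficiency among the members and across all genes alike. Over the 10 members Spearman's rho with coding sequence length was -0.94, with annotated transcript length -0.84 and with 3′ UTR length -0.22. Over 12465 genes with a coding length the same values were -0.71, -0.55 and -0.22. These are correlations across genes that share the same 8 libraries, and genes are not independent replicates. The lengths, also used for the deciles and the coding length offsets, are those of 1 annotated transcript per gene. For EIF4G2 that transcript has 1969 nt, 1332 of them coding, against 8655 nt in all its annotated exons. The decile of genes with the shortest coding sequences (75 to 552 nt), which holds EIF4EBP1 and EIF4EBP2 by length, had a median change of 0.86, and the decile with the longest (3516 to 26772 nt), which holds MTOR, TSC2, RICTOR and RPTOR, had a median of -0.92. EIF4EBP1 (1.07) lay above and EIF4EBP2 (0.52) below the median of their decile. TSC2 (-1.07), RICTOR (-1.34) and MTOR (-1.43) lay below the median of theirs and RPTOR (-0.59) above it. With coding length offsets no member was called, beside 2.58% of all genes in that fit, MTOR had -0.45 (adjusted p = 0.309 in edgeR), TSC2 -0.17, RICTOR -0.47, MLST8 0.54 and EIF4EBP1 0.20, and the contrast of the 4E-BP genes with the long genes was 0.06.

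**Figure D4:**
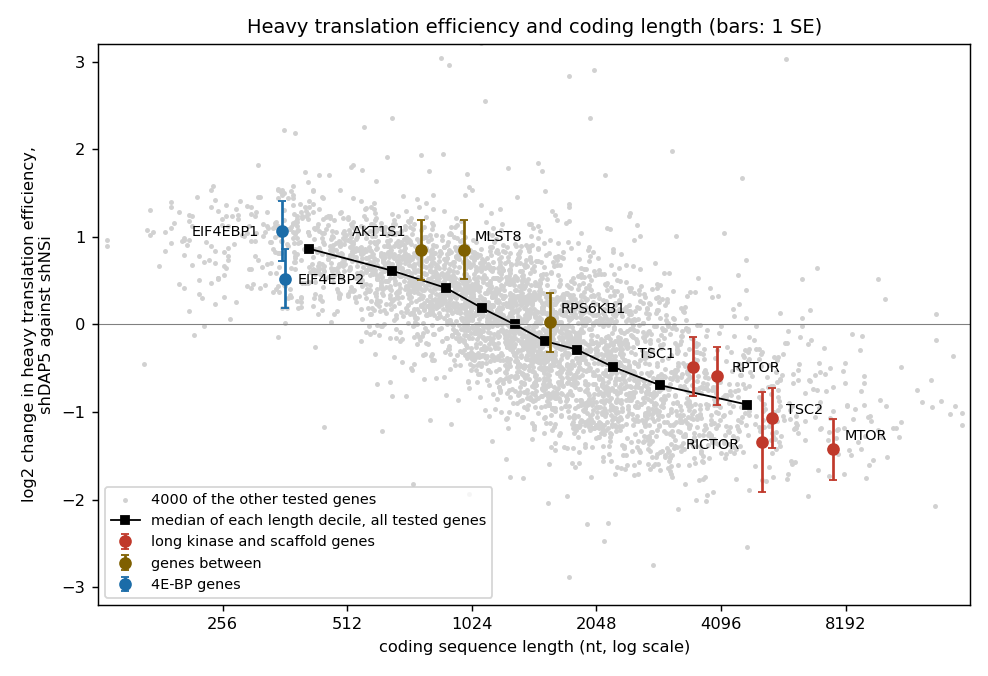
Log2 change in heavy translation efficiency of shDAP5 against shNSi cells (vertical axis, bars 1 SE) against coding sequence length in nt (horizontal axis, log scale) for the 10 members and for 4000 other tested genes (grey, values beyond 3.2 on either side not drawn). Black squares are medians of the length deciles of all genes, which go from 0.86 to -0.92, and the members lie along them.

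In light polysomes none of the 10 members passed in edgeR, beside 0% of all 15529 genes tested (1330 at an unadjusted p under 0.05), and none of the members had an unadjusted p under 0.05 or passed with DESeq2 or limma. EIF4EBP1 had 345 and 166 CPM in shNSi and 247 and 270 CPM in shDAP5 light polysomes, so that the silenced cultures lay between the control cultures, and its change was 0.01 (SE 0.38, adjusted p = 0.996). MTOR had 31.3 and 32.4 against 24.1 and 33.0 CPM and a change of -0.17 (SE 0.27, adjusted p = 0.873). Both genes overlapped. The lowest value was -0.56 for RPTOR (adjusted p = 0.605) and the highest 0.45 for RPS6KB1 (adjusted p = 0.642). Without shNSi culture 1, 3 members were called, among them RPTOR (-0.83, adjusted p = 0.00134) and RPS6KB1 (0.59, adjusted p = 0.0377), beside 28.9% of all genes in that fit.

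Light translation efficiency likewise gave no call among the 10 members in edgeR, beside 0% of all 15967 genes tested (833 at an unadjusted p under 0.05), with no member at an unadjusted p under 0.05 and none with DESeq2 or limma. The changes ran from -0.43 for AKT1S1 (adjusted p = 0.879) to 0.35 for RICTOR (adjusted p = 0.896), and MTOR had 0.07. Because the shDAP5 light libraries bear the code of the moderate pool, they were also compared with the shNSi moderate pool. EIF4EBP1, with 111 and 58.7 CPM in that pool, was then higher in shDAP5 cells by 1.61 in mRNA (adjusted p = 0.0219) and by 1.59 in translation efficiency (adjusted p = 0.00396), and it was the member called in each of these, beside 25.5% and 27.5% of all genes. Its result in this pool thus depended on which reading of the labels is right, while MTOR had -0.21 and 0.06 in the same comparisons.

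Beyond the members, a list of 74 other genes of the pathway was examined in 6 groups, of which 72 were tested. In heavy translation efficiency 3 fell and 2 rose, beside the 13.1% of all genes called in either direction, and the median over the list was 0.04 beside 0.09 over all genes. LPIN1, a phosphatidate phosphatase and mTORC1 substrate, fell by 1.19 (adjusted p = 0.0249), PRKAA1, a catalytic subunit of the energy sensor AMPK, fell by 1.05 (adjusted p = 0.0389), and TTI1, which helps assemble mTOR complexes, fell by 0.97 (adjusted p = 0.0441). For LPIN1 the log2 change was -0.38 in heavy polysome mRNA and 0.63 in total mRNA, neither of them called. PRKAA1 had -0.91 and 0.15 and TTI1 -0.96 and 0.006 in the same 2 comparisons. LAMTOR2 rose by 1.57 (SE 0.35, adjusted p = 0.00759) and LAMTOR4 by 1.35 (SE 0.35, adjusted p = 0.0114), both small subunits of Ragulator, which anchors the Rag GTPases at the lysosome. The coding sequences of LAMTOR2 and LAMTOR4 have 378 and 300 nt and those of LPIN1, PRKAA1 and TTI1 have 2673, 1680 and 3270 nt. The heavy translation efficiency of LAMTOR2 was -1.28 and -1.37 in shNSi and -0.38 and 0.59 in shDAP5 cultures, which did not overlap. All 5 calls were lost without shNSi culture 1, without shNSi culture 2, without shDAP5 culture 2, without TMM scaling, with no term for each culture and with coding length offsets, fits in which 0% to 3.59% of all genes were called. With the replicate block LPIN1 (adjusted p = 0.0641), PRKAA1 (adjusted p = 0.106) and TTI1 (adjusted p = 0.142) no longer passed in edgeR. With the shNSi moderate pool as the control LPIN1 (0.48), PRKAA1 (0.18) and TTI1 (0.84) turned direction, while LAMTOR2 (0.14) and LAMTOR4 (0.50) did not, and none passed, beside 0% of all genes.

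By group, the 15 genes of the Rag, Ragulator and lysosome group had a median change of 0.47 in heavy translation efficiency, the 12 genes of GATOR and KICSTOR 0.02 with none called, the 18 genes of TSC and upstream inputs -0.22 with 1 lower, the 15 tested substrates and effectors 0.04 with 1 lower, the 7 genes of mTORC2 and assembly -0.04 with 1 lower, and the 5 tested amino acid sensors -0.08 with none called. In heavy polysome mRNA 9 of the 72 fell and 7 rose, beside the 30.9% of all genes called. Those that rose were LAMTOR2, LAMTOR4, LAMTOR5, DDIT4, RPS6KB2, RPS6 and MAF1, and those that fell were TELO2, TTI1, PDPK1, PIK3R1, PRKAA1, IRS2, LARP1, FNIP1 and SLC38A9, the last 2 from the Rag, Ragulator and lysosome group that also holds the 3 LAMTOR genes. SLC38A9 (adjusted p = 0.05) and RPS6 (adjusted p = 0.0461) lay close to the threshold in edgeR's test. Apart from DDIT4, these heavy polysome calls were not examined under the alternatives. With the shNSi moderate pool as the control, 0.344% of all genes were called in this comparison. No listed gene was called in light polysome mRNA or in light translation efficiency by edgeR, beside 0% of all genes in both.

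In total mRNA a single gene of the 72 tested from the list was called, beside 0.354% of all genes tested. This gene was DDIT4, which encodes REDD1, a stress-induced inhibitor of mTORC1 that acts through the TSC complex. It is named here after its values were seen. DDIT4 had 221 and 201 CPM in shNSi and 505 and 399 CPM in shDAP5 total mRNA, so that the silenced cultures lay above the controls. The log2 change was 1.13 (SE 0.18, adjusted p = 0.0172), a level 2.18 times that of shNSi cells. In heavy polysomes DDIT4 had 188 and 151 CPM in shNSi and 556 and 559 CPM in shDAP5 cultures, a change of 1.90 (SE 0.37, adjusted p = 2.3e-05) that passed in 13 of 15 alternatives, missing without shDAP5 culture 2 (adjusted p = 0.0779) and with the shNSi moderate pool as the control (1.14, adjusted p = 0.564). In light polysomes it had 291 and 315 against 570 and 444 CPM (0.74, adjusted p = 0.571). Its change in heavy translation efficiency was 0.78 (adjusted p = 0.122). The change in total mRNA was higher in shDAP5 cells in all 13 alternatives, from 0.93 to 1.28, and passed in 9 of them, missing without shDAP5 culture 1 (adjusted p = 0.636), with limma, with coding length offsets and in 1 fit of all 14 libraries.

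Exons of the members overlap those of other genes by at most 6.83% of their length (AKT1S1 with TBC1D17 on the opposite strand), and the strand setting of the counting is not stated in the labels, so reads in these stretches could belong to either gene.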

How the data were processed

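RNA sequencing was done on total mRNA and on sucrose gradient pools of MDA-MB-231 cells. The authors deposited whole-number read counts per gene symbol, not normalized, in 1 table for all 14 libraries. STAR 2.6.0a and hg19 are named in the submitters' processing notes, and the settings and annotation of the counting step are not given in the sources used here. Of the 58434 symbols, 27761 had no read and 27 read as dates, and 18870 were given a coding length from GENCODE v29.

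The analysis used R 4.3.3. After filterByExpr and TMM scaling, edgeR 4.0.16 (quasi-likelihood test, robust fit) compared the 4 libraries of a fraction by shRNA. Translation efficiency and the heavy against light shift were tested as the interaction of fraction and shRNA with a term for each culture, and pools within a cell line with a term for each culture. Benjamini-Hochberg adjustment ran over all genes tested, with a threshold of 0.05. CPM values use TMM library sizes over 16235 genes of the 14 libraries. The scripts were tested on simulated data.

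Alternatives were library size without TMM, DESeq2 1.42.0, limma 3.58.1 on log2 CPM with total and polysome libraries quantile normalized separately, other count filters, coding length offsets (lowess span 0.3 in each library), the replicate block, 1 fit of all 14 libraries, leaving out the culture term, taking the shNSi moderate pool as control, and each culture left out. The replicate block with crossed pairing and the shift with the shNSi moderate pool in place of light were added after the data were seen. All 10 members and EIF4G2 are named. From a list of 74 pathway genes, up to 3 of the lowest and 3 of the highest called changes in heavy translation efficiency are named, which gave 3 and 2 genes. For MTOR and EIF4EBP1, the 3 genes of most similar level are named, among genes with a mean of at least 10 CPM. The members and lists were chosen with earlier results of these data known. Each group had 2 cultures, for which an exact two-sided permutation test cannot go below p = 0.333. Replicate libraries differed by more than sampling noise, with Pearson's r across genes of 0.965 to 0.987.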

Additional observations from a re-analysis of the deposited data

Results flagged for a closer look

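A contrast between pools that differed between shNSi and shDAP5 cells, by the interaction term of edgeR's quasi-likelihood test, brought 5 results forward for a closer look. The heavy against light shift was -1.55 for MTOR (adjusted p = 0.0382) and -1.77 for RICTOR (adjusted p = 0.0356), each lower in both silenced cultures than in both control cultures. The heavy against total difference was -1.43 for MTOR (adjusted p = 0.00983), -1.07 for TSC2 (adjusted p = 0.0326) and 1.07 for EIF4EBP1 (adjusted p = 0.0335). MTOR appears in both, and the comparisons share the heavy libraries. With the shNSi moderate pool in place of the heavy pool none of the 5 passed the test, as no gene did in those fits, and with it in place of the light pool both shifts passed.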

How the results depend on the processing

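Each group had 2 cultures, which limits these results, and depth was similar in all libraries. The effect of depth was not tested by thinning reads. Of 898 values of single genes under the alternatives, 637 kept their direction and their side of the threshold, 72 turned direction, 159 fell below the threshold and 30 passed it. Of 119 values of the member counts and of the 4E-BP contrast, 82 stayed near the reported value. The cause of each change named here was not tested, except that the moderate pool and the coding length offsets change the control or the scale by construction. The shNSi and shDAP5 cultures share replicate numbers, but with 2 pairs the deviations of same-numbered cultures correlated by -0.09 in total mRNA, 0.05 in heavy and 0.04 in light polysomes and -0.15 in heavy translation efficiency, so the numbers are not taken to pair them. With the replicate block 6 members were called in heavy polysome mRNA (beside 33% of all genes) and 2 in heavy translation efficiency (MTOR, -1.43, and RICTOR, -1.35, beside 4.48%). With the replicate block crossed, 6 members were called in heavy translation efficiency, beside 26.9% of all genes. Comparisons within a cell line were not run without a culture, since no residual degree of freedom would remain.

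Without TMM the median change of all genes moved from 0.09 to 0.30 in heavy translation efficiency and from 0.09 to 0.34 in heavy polysome mRNA, 4 members were called in heavy polysome mRNA (1 lower, 3 higher, against 4 lower and 3 higher, beside 25.5% of all genes) and 0 in heavy translation efficiency (0%), and all calls over all genes went from 2390 lower and 2024 higher to 1139 lower and 2504 higher in heavy polysome mRNA. In this setting the shNSi heavy against light difference was -0.067 for TSC1 and -0.31 for RPS6KB1. Calls in heavy translation efficiency were 5 with at least 10 counts in every library (19.1% of all genes), 0 with limma (2.65%) and 0 with no term for each culture (0%). In 1 fit of all 14 libraries 3 members were called in heavy polysome mRNA (23.7%). For the heavy against light shift the calls were 4 with DESeq2 (beside 12.4% of all genes), 0 with limma and 0 with no term for each culture (both 0%). With at least 10 counts 3 members were called between the shDAP5 pools (50.3%), and RPS6KB1 had -0.087 between shNSi heavy and light.

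With coding length offsets the calls were 0 in heavy polysome mRNA (12.1% of all genes), 0 in heavy translation efficiency (2.58%), 0 in the shift (0%) and 2 between the shNSi moderate and heavy pools (20%), and the 4E-BP contrast was 0.0555. TSC1 turned to 0.42 in heavy polysome mRNA, 0.26 in heavy translation efficiency, 0.15 in the shift, -0.87 for shNSi heavy against light and 0.29 for shNSi moderate against heavy. EIF4EBP2 turned to -0.46, -0.34, -0.33, 0.69 and -0.41 in the same 5 comparisons and to 0.37 for shDAP5 heavy against light. RPTOR turned to 0.21 in heavy translation efficiency, 0.52 in the shift and 0.17 for moderate against heavy. RPS6KB1 turned to -0.48 for shNSi heavy against light, MTOR to -0.11 in light translation efficiency and EIF4EBP1 to -0.014 in light polysome mRNA.

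With the shNSi moderate pool in place of heavy the calls were 0 in heavy polysome mRNA, heavy translation efficiency and the shift, beside 0.344%, 0% and 0% of all genes, and the 4E-BP contrast was -0.41. In heavy polysome mRNA MTOR turned to 0.50, RICTOR to 0.26, TSC1 to 0.44, TSC2 to 0.96, RPS6KB1 to -0.085, AKT1S1 to -0.10, MLST8 to -0.090 and EIF4EBP2 to -0.075. In heavy translation efficiency MTOR turned to 0.72, RPTOR to 0.38, RICTOR to 0.077, TSC1 to 0.29, TSC2 to 1.07, RPS6KB1 to -0.33, AKT1S1 to -0.035 and MLST8 to -0.052, and of the other pathway genes LPIN1 to 0.48, PRKAA1 to 0.18 and TTI1 to 0.84. In the shift MTOR turned to 0.66, RPTOR to 0.50, TSC1 to 0.017 and TSC2 to 0.90. With the heavy and moderate pools summed the calls were again 0 in all 3 comparisons (2.77%, 0% and 0% of all genes), the contrast was 0.74, TSC1 had 0.0246 in heavy polysome mRNA, RPS6KB1 -0.071 in heavy translation efficiency and RPTOR 0.0247 in the shift. With moderate in place of light, 1 member was called in light polysome mRNA (25.5% of all genes) and 1 in light translation efficiency (27.5%), where EIF4EBP1 had 1.59 and AKT1S1 0.067. In the shift with moderate in place of light 4 members were called (23.9%), EIF4EBP1 turned to -0.55, EIF4EBP2 to -0.24 and RPS6KB1 to 0.17. With light and moderate summed EIF4EBP1 had 0.62.

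RPS6KB1, at 0.02 in heavy translation efficiency, had -0.041 with DESeq2 and -0.0041 with no filter. EIF4EBP1, at -2e-04 in light translation efficiency, had 0.029 without TMM, 0 with no filter, 0.0033 with at least 10 counts, 0.071 with limma, 1e-04 with the replicate block and 4e-04 with the block crossed, and in light polysome mRNA it had -5e-04 with no filter. Leaving out each culture in turn gave 0 to 5 calls in heavy polysome mRNA, 0 to 6 in heavy translation efficiency, 0 to 3 in light polysome mRNA and 0 to 3 in the shift, while the share of all genes called ran from 0.0134% to 23.7%, 0.025% to 28.5%, 0.0125% to 28.9% and 0.0121% to 17.8%. Over the same fits EIF4EBP1 ranged from -0.037 to 0.26 in total mRNA, from -0.42 to 0.61 in light polysome mRNA and from -0.40 to 0.38 in light translation efficiency, MTOR from -0.42 to 0.0365 in light polysome mRNA and from -0.038 to 0.16 in light translation efficiency, RICTOR from -0.062 to 0.77 in light translation efficiency, and RPS6KB1 from -0.27 to 0.31 in heavy translation efficiency and from -0.58 to 0.012 in the shift.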

Other observations

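Over the 14 libraries and 9392 genes, the log2 levels most like those of MTOR were of POLR1A, POLR2A and SUPT6H, each with Pearson's r of 0.99, and those most like EIF4EBP1 were of TMEM261, RP3-522D1.1 and SMIM4, each also with r of 0.99. The points share libraries of the same cultures, and most of their spread lies between gradient pools. Among the members, the r of MTOR was 0.95 with TSC2 and 0.89 with RPTOR, and that of EIF4EBP1 with EIF4EBP2 was 0.87. Other pairs of long genes were less alike, with an r of 0.68 for MTOR with RICTOR, 0.55 for MTOR with TSC1 and 0.21 for RPTOR with TSC1.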
